A study of Mus musculus with 2 samples.

Results

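Open chromatin sites in the first introns of protein-coding genes were examined in embryonic mouse liver. A site was a DNase-seq peak of technical replicate 7 on an autosome that overlapped a peak of technical replicate 1 by at least 1 bp. Its midpoint lay over 1 kb from every annotated transcription start and outside exons, in intron 1 of the longest transcript of a protein-coding gene. Of 83870 autosomal peaks of technical replicate 7, 38740 were shared with technical replicate 1, and 2051 of these (5.29%) were first-intron sites. A further 3862 shared peaks lay in later introns of the longest transcripts, 7053 were intergenic, 23258 lay within 1 kb of a start, 1444 in exons and 1072 in other introns.

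The tissue was liver of B6NCrl mouse embryos aged 11.5 days, with males and females pooled. The 2 libraries were made from 1 biosample, biological replicate 1, so the design holds 1 group, no control and no comparison between conditions. The intervals below are 95% intervals for counting error only and say nothing of the spread between animals. They count each site as a separate event, although some sites lay side by side, so they can be too narrow. The labels name the HiSeq 4000 and HiSeq 2500 for technical replicate 7 and no instrument for technical replicate 1. Of 10 erythroid marker genes, 9 had an open start, meaning a peak of both libraries within 1 kb, and Slc4a1 had none. Of 12 hepatoblast markers 8 had one, and Hnf4a, Afp, Alb and Ttr had none. In whole tissue, fewer cells of a type and weaker opening per cell cannot be told apart.

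DNase I cuts DNA that is not covered by nucleosomes, so a peak of cuts marks an accessible stretch such as a promoter, an enhancer or an insulator. The first intron follows the promoter directly, is often the longest intron of a gene and is a known place for enhancers and for further promoters. In embryonic liver red blood cells form, and GATA1, TAL1 and KLF1 act at erythroid enhancers, while hepatoblasts rely on factors such as HNF4A and the FOXA proteins.

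The sequences of 6 sites are given to show what the sites look like. They are 150 bp windows centred on the peak, plus strand of GRCm38 (mm10), 5′ to 3′, and capitals mark the named motif on either strand. The first 4 are the strongest sites, by mean density rank of both libraries, among those considered for printing. These were 24 sites with a composite of E-box and GATA, 231 with a CTCF motif, 12 with an NRF1 motif and 7 with an HNF4 motif. Those of Zfpm1 and Myb are the strongest sites of these blood cell regulators. In the Zfpm1 site the capitals mark a KLF and a GATA motif, and the Myb site held none of the 20 motifs searched.
Plxnc1, E-box and GATA, chr10:94932035-94932184: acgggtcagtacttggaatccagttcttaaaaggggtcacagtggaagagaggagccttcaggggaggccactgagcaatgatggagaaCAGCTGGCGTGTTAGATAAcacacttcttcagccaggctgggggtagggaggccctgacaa
Agrp, CTCF, chr8:105622492-105622641: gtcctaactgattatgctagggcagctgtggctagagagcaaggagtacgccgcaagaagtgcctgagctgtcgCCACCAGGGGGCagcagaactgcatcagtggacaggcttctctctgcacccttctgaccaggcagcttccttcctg
Ptma, NRF1, chr1:86528235-86528384: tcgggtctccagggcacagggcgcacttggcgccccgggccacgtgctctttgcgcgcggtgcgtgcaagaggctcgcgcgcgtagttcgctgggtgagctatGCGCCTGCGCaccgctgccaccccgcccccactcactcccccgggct
Gng7, HNF4, chr10:80999983-81000132: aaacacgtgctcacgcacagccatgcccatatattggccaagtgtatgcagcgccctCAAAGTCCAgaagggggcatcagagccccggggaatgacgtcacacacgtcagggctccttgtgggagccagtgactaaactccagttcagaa
Zfpm1, KLF and GATA, chr8:122294323-122294472: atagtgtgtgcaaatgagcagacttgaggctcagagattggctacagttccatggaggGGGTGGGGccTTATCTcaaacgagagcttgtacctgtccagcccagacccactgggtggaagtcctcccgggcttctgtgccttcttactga
Myb, chr10:21159052-21159201: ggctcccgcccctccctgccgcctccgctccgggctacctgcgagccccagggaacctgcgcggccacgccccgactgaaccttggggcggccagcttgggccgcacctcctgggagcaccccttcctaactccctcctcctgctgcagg

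The Plxnc1 site lay 12725 bp inside its gene, which encodes a semaphorin receptor, and had a deposited density of 1.98 in technical replicate 7 and 1.51 in technical replicate 1. Density here is the height of DNase cutting that the authors list for a peak, and it was used only to rank peaks within a library. The Agrp site, with a consensus for the insulator protein CTCF, had densities of 3.58 and 2.29. The Ptma site lay 1503 bp from the nearest start in a window of 73.3% GC. It held the motif of NRF1, a factor of GC-rich promoters, and ranked at the 76.4th percentile in technical replicate 7 and the 84.8th in technical replicate 1. The Gng7 window also held a CRE and a CTCF match.

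First introns held more open sites per length than later introns. There were 10.3 sites per Mb of assayable first intron (9.85 to 10.7; 199.3 Mb) and 6.46 per Mb of later intron (6.26 to 6.67; 597.7 Mb), a ratio of 1.59 (1.51 to 1.68). Intergenic sequence held 5.71 per Mb. Assayable means over 1 kb from a start and outside exons. Among later introns the density varied little with position, at 6.84 per Mb in intron 2, 6.47 in intron 3, 6.60 in intron 4 and 6.29 from intron 5 on. Last introns held 7.64 per Mb.

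The excess lay close to starts. Between 1 and 2 kb from the nearest start, first introns held 42.8 sites per Mb (39.8 to 46.0), later introns 18.99 (16.9 to 21.2) and intergenic sequence 17.0, and the ratio of first to later introns was 2.25 (1.97 to 2.58). At 2 to 5 kb the ratio was 1.19 (1.05 to 1.34). It was 1.02 (0.889 to 1.17) at 5 to 10 kb and 0.906 (0.788 to 1.04) at 10 to 20 kb, so that these intervals included 1. At 20 to 50 kb first introns held fewer sites, 4.19 against 5.95 per Mb, a ratio of 0.705 (0.597 to 0.828). Beyond 50 kb the ratio was 1.05 (0.810 to 1.35). Stratified by these distances the ratio was 1.16 (1.09 to 1.23), and stratified by the GC content of 1 kb tiles it was 1.49.

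**Figure D1:**
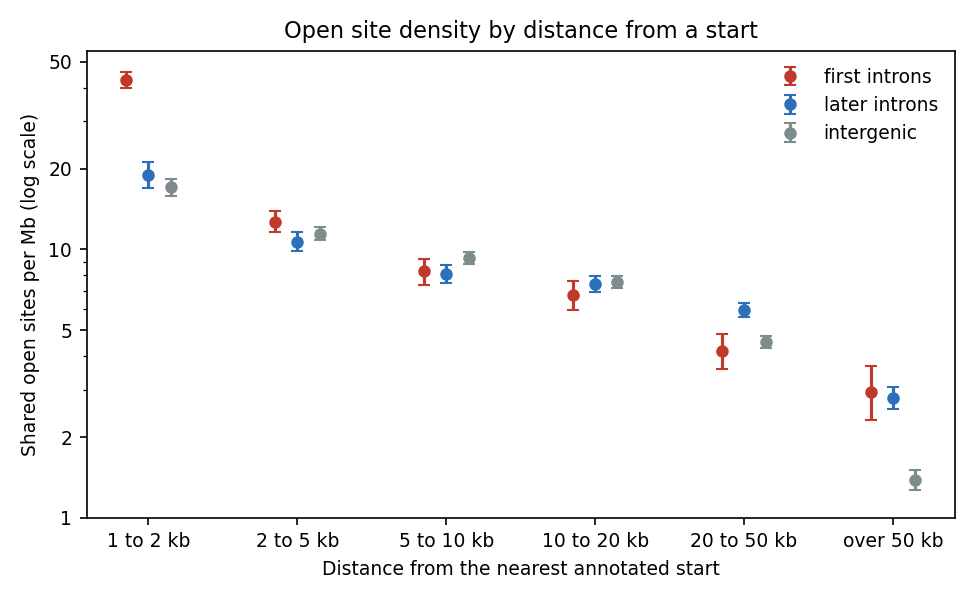
Shared open sites per Mb (log axis) against distance from the nearest annotated start, for first introns, later introns and intergenic sequence. Points are densities and bars 95% Poisson intervals for counting error; the first-intron point stands apart at 1 to 2 kb (42.8 against 18.99 and 17.0 per Mb) and lies below later introns at 20 to 50 kb.

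Of the 2051 sites, 750 lay 1 to 2 kb from a start, 467 at 2 to 5 kb and 834 farther away. The nearest start was that of the gene's own longest transcript for 941 sites (45.9%). Of 2117 pairs of site and gene, 32.3% fell in the first 20% of the intron and 17.7% in the last 20%. The ratio of first to later introns was above 1 in each bin of intron length, from 1.86 for introns of 20 to 100 kb to 2.91 for introns under 5 kb. In tiles of at least 55% GC, first introns held 174.75 sites per Mb and later introns 73.2, whereas in tiles under 40% GC they held 0.674 and 0.531.

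The density also differed with the state of the gene's own start. In 8993 genes with an open start at the longest transcript, first introns held 12.3 sites per Mb and later introns 6.63, a ratio of 1.86 (1.75 to 1.98). In the 5462 genes without one the values were 5.67 and 5.22, a ratio of 1.09 (0.958 to 1.23). First introns of genes with an open start thus held 2.18 times (1.94 to 2.44) the density of those without, and later introns 1.27 times (1.18 to 1.38). Sites were counted once per gene here, with the 139 of the readthrough gene Gm20388 among genes with an open start. Open starts were called from the same shared peaks. Of first-intron sites 18.1% lay in 1 broader region of raised cutting with a peak at a start. The part of these in the ratios was not tested.

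**Figure D2:**
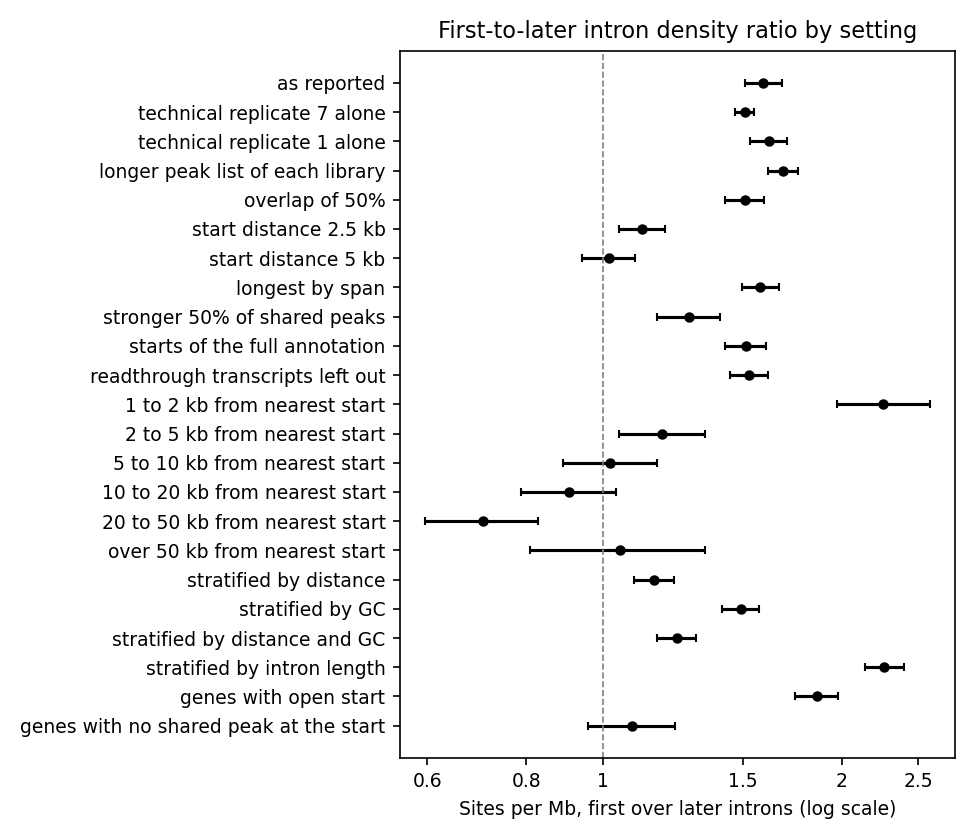
Ratio of site density in first to later introns (log axis) as reported, under other processing choices, within distance bins, after stratification and by the state of the gene's start; bars are 95% intervals for counting error and the dashed line marks 1. The ratio is 1.59 as reported, 2.25 at 1 to 2 kb and 0.705 at 20 to 50 kb from a start.

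Sites near starts shared features with promoters. CpG-rich sequence (observed over expected CpG of at least 0.6 and GC of at least 50%) made up 20.1% of first-intron sites (18.4 to 21.9), 8.57% of later-intron sites (7.71 to 9.50) and 16.2% of intergenic sites. At 1 to 2 kb the shares were 36.5% in first and 22.98% in later introns, at 2 to 5 kb 14.3% and 14.5%, and beyond 5 kb 8.63% and 5.98%. Of shared peaks within 1 kb of a start 74.8% were CpG-rich. Of first-intron sites 18.1% lay in the same hotspot, a broader region of raised cutting, as a shared peak at a start, against 2.30% of later-intron sites. At 1 to 2 kb these shares were 46.9% and 26.2%. The rule used starts of the basic annotation, and 382 sites (18.6%) lay within 1 kb of a start in the full annotation, against 16.5% of later-intron sites. Whether these are promoters of other transcripts was not tested.

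First-intron sites were of moderate strength, and their order against later introns differed between the libraries. Ranked among all 38740 shared peaks of technical replicate 7, their median density percentile was 37.4 (35.6 to 38.9), below the 43.9 (43.1 to 45.1) of later introns. In technical replicate 1 it was 30.8 (30.1 to 32.9), above the 27.0 (26.2 to 28.6) of later introns. The sites at 1 to 2 kb from a start had medians of 27.8 in technical replicate 7 and 33.9 in technical replicate 1, and those beyond 5 kb 41.4 and 27.8. Peaks within 1 kb of a start ranked higher in both, at 59.0 and 65.1. Footprints, short protected stretches, were listed in technical replicate 7 within 63.4% of first-intron sites and 79.1% of later-intron sites. Of all first-intron peaks of technical replicate 7, shared or not, 27.5% (26.5 to 28.5; 2051 of 7462) were shared, against 26.0% in later introns and 31.6% of intergenic peaks. Technical replicate 1 had fewer autosomal peaks, 41261 against 83870, and 91.0% of its first-intron peaks were shared. With its longer list the share for technical replicate 7 was 37.8%.

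**Figure D3:**
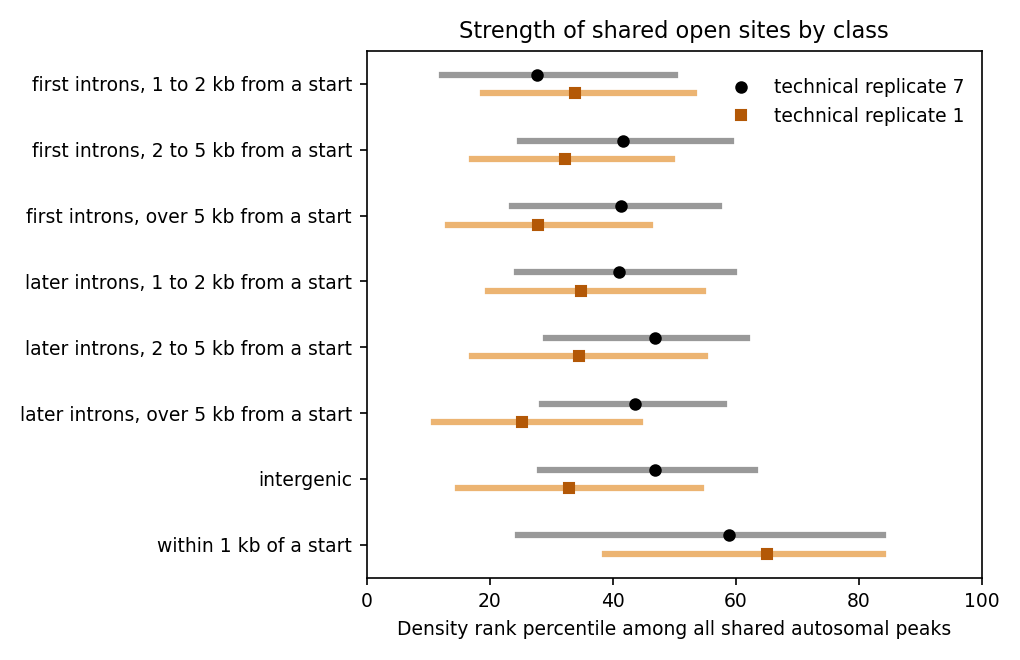
Density rank percentile of shared peaks by class, ranked within technical replicate 7 (circles) and technical replicate 1 (squares); markers are medians and thick lines run from the lower to the upper quartile. First-intron sites 1 to 2 kb from a start have medians of 27.8 and 33.9, below the 59.0 and 65.1 of peaks within 1 kb of a start.

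Motifs were searched as fixed letters on both strands of the 150 bp windows. CTCF, NRF1, the composite of E-box and GATA, NFE2, HNF1 and NFI were searched by longer patterns, and a match of the composite also holds the letters searched for GATA. A match is a description of the sequence and not of binding. First-intron windows had a mean GC of 57.95% and their flanking windows, 2 kb away, 47.4%. For later introns these means were 55.5% and 48.05%. The part of base composition in the comparisons with flanks was not tested.

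The CTCF motif was the one motif whose share was lower in first-intron than in later-intron sites with an interval below 1. It stood in 11.7% of first-intron sites (10.3 to 13.2; 240 of 2051), 26.6% of later-intron sites (25.2 to 28.02) and 23.8% of intergenic sites, a first-to-later ratio of 0.440 (0.386 to 0.501). Flanking windows 2 kb away held it in 0.615% and 0.710%, and peaks within 1 kb of a start in 1.965%. The ratio was below 1 in each distance bin, from 0.377 at 1 to 2 kb (4.27% against 11.3%) to 0.665 at 2 to 5 kb. Beyond 20 kb the shares were 16.1% and 28.1%. The 240 first-intron sites with the motif had a median rank percentile of 51.1 in technical replicate 7, and the 1811 without it 35.0. In technical replicate 1 these medians were 32.2 and 30.8, with overlapping intervals.

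Over all distances KLF, AP-1 and SP motifs were more frequent in first-intron than in later-intron sites, but not in every distance bin. KLF motifs (CCNCACCC), the sites of erythroid KLF1 and its relatives, stood in 13.99% (12.5 to 15.6) against 9.50% in later introns, a ratio of 1.47 (1.27 to 1.70), with 6.86% in first-intron flanks. At 1 to 2 kb from a start the KLF ratio was 1.06 (0.734 to 1.53), and in the farther bins it ran from 1.43 to 1.76 with intervals above 1. AP-1 motifs (TGAGTCA), of basic zipper factors, stood in 3.95% against 2.69%, a ratio of 1.47 (1.10 to 1.95). By distance the AP-1 interval lay above 1 at 5 to 20 kb, with a ratio of 2.53 (1.53 to 4.18), and included 1 in the other bins (1.10 at 1 to 2 kb, 0.893 beyond 20 kb). SP motifs (GGGGCGGGG), of promoter-binding zinc finger factors, stood in 4.97% against 3.81%, a ratio of 1.31 (1.02 to 1.67). For SP the order turned near starts: at 1 to 2 kb the shares were 6% in first and 10.03% in later introns, a ratio of 0.598 (0.386 to 0.927). The AP-1 interval included 1 in technical replicate 1 alone (ratio 1.32) and with 300 bp windows (1.12), and the SP interval in technical replicate 7 alone (1.13).

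GATA motifs (AGATAA or TGATAA) were close in share over all distances, at 17.4% in first and 16.2% in later introns, a ratio of 1.07 (0.954 to 1.21), with 12.4% in first-intron flanks and 3.76% at starts. The interval lay above 1 with 100 bp windows (1.16, 1.01 to 1.34) and in technical replicate 7 alone (1.07, 1.02 to 1.13). By distance the ratio changed direction. At 1 to 2 kb from a start the first-intron share was lower, 9.73% against 16.8%, a ratio of 0.578 (0.416 to 0.805). At 5 to 20 kb it was higher, 23.8% against 15.4%, a ratio of 1.54 (1.28 to 1.86). The composite of E-box and GATA, bound by TAL1 with GATA1, stood in 25 first-intron sites (1.22%) and 54 later-intron sites (1.40%). Among motifs of liver factors, HNF4 (CAAAGTCCA) stood in 7 first-intron sites (0.341%, against 0.322% in flanks). FOX (TGTTTAC), the forkhead motif, stood in 44 (2.15%, against 2.08% in flanks). HNF1 had no match in any class or in the flanks, so this pattern cannot tell the classes apart. For first-intron sites, 0 of 2051 allows a share of up to 0.180%. Longer patterns match less often, so counts were not compared between motifs.

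The other promoter motifs were ETS (CCGGAAG), in 2.39% of first-intron sites against 1.84% of later-intron sites, and NRF1, in 0.634% against 0.544%. YY1 (ATGGCGG), the motif of a zinc finger factor, stood in 1.51% against 1.01%. NFY (CCAATNAG), the CCAAT box factor, stood in 2.10% against 1.84%, and the cyclic AMP response element CRE (TGACGTCA) in 0.731% against 0.414%. Among motifs of factors of blood, liver and other cells, RUNX (TGTGGTT) stood in 3.71% against 3.99%, and NFE2 in 0.488% against 0.311%. CEBP (TTGCNNAA) stood in 5.31% against 4.997%, TEAD (GGAATGT) in 1.95% against 1.68% and TCF/LEF (ATCAAAG), the end point of Wnt signalling, in 0.926% against 1.29%. For each of these the interval of the ratio included 1 as reported. The ETS interval lay above 1 in technical replicate 7 alone (1.46, 1.20 to 1.78) and in technical replicate 1 alone (1.65, 1.13 to 2.41), and the YY1 interval in technical replicate 1 alone (1.78, 1.004 to 3.14). NFI stood in 0 of the first-intron and 3 of the later-intron sites. At starts the promoter motifs were more frequent, with ETS in 9.78% and NRF1 in 5.92%. First-intron flanks held RUNX in 3.90%, NFE2 in 0.0879%, CEBP in 5.36%, TEAD in 1.67% and TCF/LEF in 1.64%. Of these motifs, RUNX, CEBP and TEAD had shares in first-intron sites close to those in flanks. The TCF/LEF share was below that of flanks, with a ratio of 0.564 (0.336 to 0.947). Mean GC was 57.95% in the sites and 47.4% in the flanks, and its part in these shares was not tested.

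**Figure D4:**
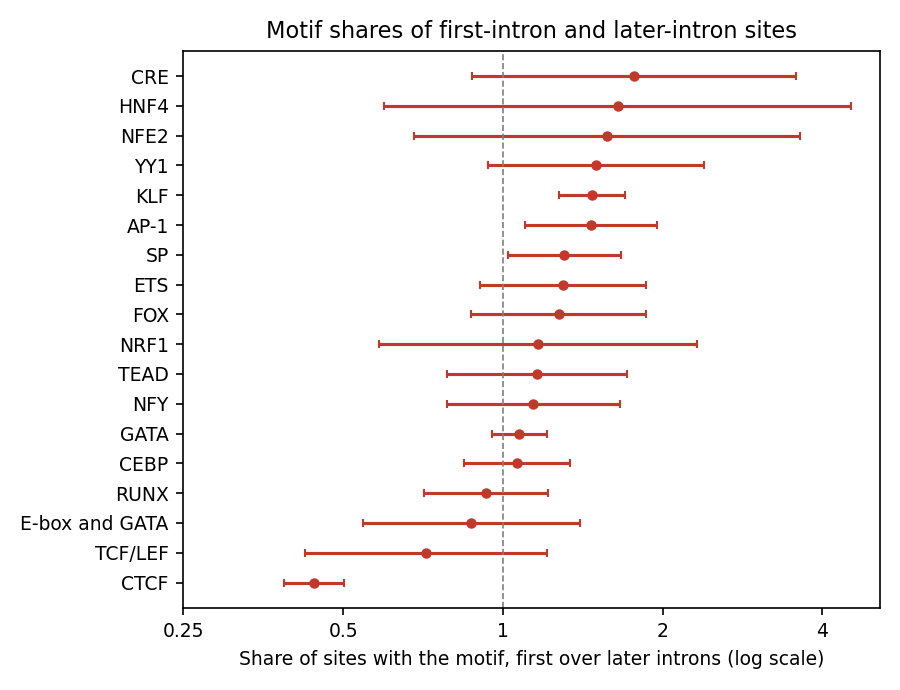
Ratio of the share of first-intron sites holding each motif to that of later-intron sites (log axis), for the 18 motifs with matches in both; bars are 95% intervals for counting error and the dashed line marks 1. CTCF lies at 0.440, and the intervals of KLF, AP-1 and SP lie above 1.

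Most genes had no such site. Of 14455 protein-coding genes with an assayable first intron, 1336 (9.24%) held at least 1 site. In technical replicate 7 alone, without the need for a shared peak, 7462 first-intron peaks lay in 3696 genes. Of the 1336 genes, 935 held 1 site, 401 held 2 or more and 18 held 5 or more. Joined across gaps of up to 500 bp, the sites formed 1708 loci. Most sites, 1428, stood alone at this gap, and 113 pairs abutted. Abutting sites often overlapped the same peak of technical replicate 1 and then have the same density there. In all, 43 sites lay in the first introns of 2 or more genes, and 1 of them counted for 24 genes of a clustered protocadherin array.

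Some of the highest counts rest on the annotation. Gm20388, a readthrough gene whose longest transcript has a first intron of 4.38 Mb, held 139 sites (6.78%), of which 113 lay in no other gene's first intron. Without transcripts tagged as readthrough, 129 of the 2051 sites were no longer first-intron sites and the ratio of first to later introns was 1.53. Tmem267 held 11 sites in 15.04 kb of assayable sequence around an assembly gap of 100 kb. Of these, 7 consisted of repeats for 54.4% to 86.0% of their length, and the part of repeats in this count was not tested.

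Maml3, a Notch coactivator, held 10 sites spread over its first intron of 246.6 kb. Its strongest by mean rank lay 2.84 kb from its start, with densities of 2.65 in technical replicate 7 and 3.46 in technical replicate 1. Another, 58.0 kb from the start, had 3.67 and 2.30 and was the highest of the gene in technical replicate 7. Arhgap23 held 9 sites between 12.8 and 26.3 kb. The strongest of them had densities of 2.73 and 2.63. Nol4l held 8 sites in a group at 1.20 to 3.86 kb and another at 34.1 to 35.9 kb. Agrp, Gse1 and Tspan9 held 7 each, and Anp32a 6, of which 5 lay within 3.44 kb of the start. Those 5 lay 30 to 713 bp from a start of the full annotation, and Tspan9 sites lay 82, 202 and 803 bp from one. Arhgap23, Zfp516 and Spns2 also held sites within 1 kb of such a start. The longest Agrp transcript has a first intron of 52.9 kb. Its sites lay 14.8 to 43.4 kb from its own start but 1364 to 8722 bp from the nearest annotated start. Zfp516 held 5. Per length, Tmem267 (731.6 per Mb), Dusp4 (613.6), Adgra2 (410.3), Spns2 (353.8) and Arhgap23 (325.5) led among genes with 5 or more.

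Erythroid genes held a site more often than the average gene. In a list of erythroid genes, 11 of 28 with an assayable first intron (39.3%) held a site, against 9.24% of all such genes, and their first introns held 56.7 sites per Mb (36.7 to 83.7) against 10.3. Without Zfpm1, the richest member, they held 42.97 per Mb (25.5 to 67.9). These intervals count sites as separate, although of the 25 sites 7 lay in Zfpm1 and 3 each in Ank1 and Myb. The median was 0 sites per gene, as over all genes. Of the 23 members with an open start 43.5% held a site, against 11.9% of all genes with an open start. The lists were drawn up with earlier results of these data known.

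Zfpm1 encodes FOG1, the cofactor of GATA1, and held 7 sites from 1.47 to 22.1 kb after its start. In technical replicate 7 their densities ran from 0.901 to 1.60 and in technical replicate 1 from 0.879 to 1.79. Of the 7 windows 4 held a GATA motif, and its later introns held no site. Ank1, which encodes the red cell membrane protein ankyrin, held 3 sites side by side. They lay 53.2 to 53.8 kb from the start of its longest transcript and 6369 to 7002 bp from the nearest annotated start. Their densities were 1.59, 1.06 and 0.617 in technical replicate 7 and 2.12, 2.12 and 1.22 in technical replicate 1. Myb, a regulator of blood progenitors, held 3 sites at 1.62, 1.78 and 2.65 kb, with densities of 0.529, 0.753 and 0.861 in technical replicate 7 and 1.30, 1.30 and 0.939 in technical replicate 1. The order of the 3 Myb sites thus differed between the libraries.

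Blood progenitor genes held a site in 6 of 17 cases (35.3%), against 9.24% of all genes. Their density was 18.5 sites per Mb (7.99 to 36.5), an interval that included the 10.3 of all genes. Prdm16 held 3 sites and Runx3, Fli1, Meis1, Kit and Hlf 1 each. The Fli1 site lay 1.04 kb from the start of this ETS factor gene, with densities of 0.577 and 1.21. The Meis1 site had a rank percentile of 2.24 in technical replicate 7 and of 30.1 in technical replicate 1, and lay 242 bp from a start of the full annotation. Runx1 and Cdk6 could not be assessed, because the first introns of their longest transcripts, 0.229 and 0.147 kb, had no assayable base. Runx1 held 7 sites in later introns. Erg, Etv6, Foxp1 and Slc25a37 had assayable first introns and no site there.

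In share of genes with a site, liver lists were closer to the background of 9.24% than the erythroid and blood progenitor lists. In density the hepatoblast list, at 29.8 per Mb, lay above the blood progenitor list, at 18.5, with overlapping intervals that both included the 10.3 of all genes. The median assayable first intron was 2.315 kb in the hepatoblast list, 7.96 kb in the blood progenitor list and 3.89 kb over all genes. The part of intron length in these shares was not tested. Of the hepatoblast list 3 of 18 genes (16.7%) held a site: Igf2bp3 held 2 and Krt8 and Igf2bp1 held 1 each, at 29.8 per Mb (8.12 to 76.3) and at 14.98 per Mb without Igf2bp3. Prox1 and Hnf4a, regulators of liver cell fate, held none. The 2 Igf2bp3 sites lay 734 and 270 bp from a start of the full annotation. Of the mature hepatocyte list 1 of 15 held a site, in Glul, 364 bp from such a start. The macrophage and myeloid list (8 genes), the endothelial list (12) and the striated muscle list (12) held none, for which the upper limits were 242.7, 23.6 and 18.6 sites per Mb. Tubb1 was the 1 of 6 megakaryocyte genes with a site, and Alcam and Ngfr were the 2 of 13 mesenchymal genes. Of the neuronal list 2 of 13 genes (15.4%) held a site, Ntm and Cntnap2. Their share was above the background and their density below it, with 3 sites in 1.63 Mb or 1.84 per Mb (0.379 to 5.37).

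Chromatin and cofactor genes held a site in 8 of 21 cases (38.1%), against 9.24% of all genes. They held 37.4 sites per Mb (23.7 to 56.1), against 10.3. Their median assayable first intron was 29.2 kb, against 3.89 kb over all genes. Kdm6b, a histone H3 lysine demethylase, held 4 within 4.10 kb, with densities of 0.585 to 5.27 in technical replicate 7 and 1.42 to 4.71 in technical replicate 1. Jarid2, a Polycomb partner, held 2 abutting sites, of densities 1.72 and 1.91 in technical replicate 7. They lay 437 and 130 bp from a start of the full annotation. Nuclear receptor genes held a site in 5 of 14 cases (35.7%), at 15.9 per Mb (7.95 to 28.5). Without Rora and its first intron of 542.1 kb they held 46.9 per Mb (18.9 to 96.6). Cell cycle genes held a site in 3 of 10 cases, at 53.55 per Mb (23.1 to 105.5). TGF-beta and BMP genes held one in 3 of 16, at 15.3 per Mb (6.15 to 31.5), with 4 sites in Smad6. Housekeeping genes held one in 1 of 13, Tubb5, at 18.6 per Mb (0.471 to 103.7). The Tubb5 site lay 120 bp from a start of the full annotation. The intervals of the full nuclear receptor list, the TGF-beta and BMP list and the housekeeping list included the 10.3 of all genes.

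**Figure D5:**
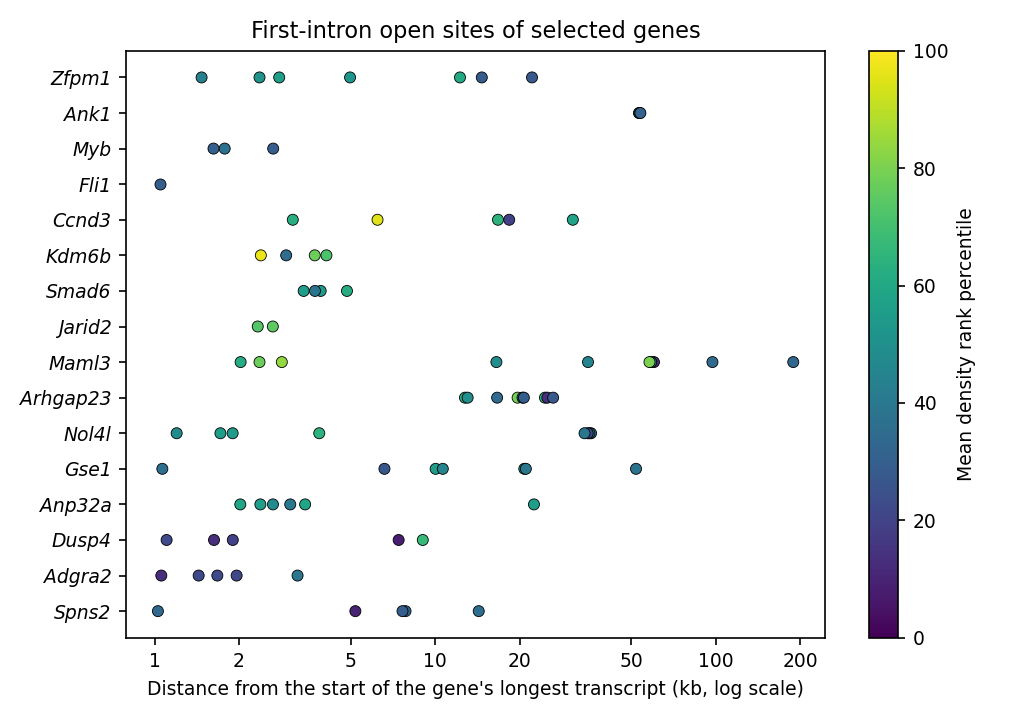
First-intron open sites of selected genes by distance from the start of the gene's longest transcript (kb, log axis); each circle is a site and its colour the mean of its density rank percentiles in both libraries. Zfpm1 sites spread from 1.47 to 22.1 kb, Ank1 sites sit together near 53.2 kb, and the brightest circles are those of Kdm6b and Ccnd3.

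The 8 strongest sites, by mean rank, lay in Mnt, Midn, Kdm6b, Acaca, Slc16a3, Dlg4, Zfp13 and Ccnd3, with mean percentiles from 97.9 down to 95.2. The Mnt site, in the gene of a MYC antagonist, had densities of 5.23 in technical replicate 7 and 5.81 in technical replicate 1. The Ccnd3 site, in the gene of cyclin D3, lay 6.23 kb from the start with 4.20 and 5.64, the highest of the 5 sites of this gene in both libraries. Those of Midn, Acaca and Slc16a3 lay 364, 218 and 116 bp from a start of the full annotation. The GC content of the 8 sites ran from 57.4% to 78.3%, against a median of 55.7% over all first-intron sites. All but the Ccnd3 site were CpG-rich by the rule above, against 20.1% of all first-intron sites. Kdm6b, Acaca and Dlg4 had no open start at the longest transcript.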

How the data were processed

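DNase-seq files of 2 libraries of 1 biosample were used, on mm10 per the labels. For the aligner and the callers, names are not given in the sources used. The authors called peaks per library; the deposited density is a signal per peak, the deposited hotspots carry a −log10 false discovery rate, and the deposited footprints of technical replicate 1 carry a constant read as a p-value threshold. Each library had 2 peak lists, and the shorter, read from the values as the stricter, was used. Densities were ranked within a library only.

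Peaks were placed by midpoint with GENCODE vM21 basic and GRCm38; sex chromosomes were left out (2166 peaks of technical replicate 7). Rate ratios have exact conditional, densities exact Poisson, shares Clopper-Pearson, ratios of shares Katz and stratified ratios Mantel-Haenszel intervals, at 95%. No p-value was computed. Python 3.11.15, numpy 2.4.6, scipy 1.17.1 and matplotlib 3.10.9 were used, and the interval and motif functions were tested on simulated data.

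Members, the 15 gene lists and the motifs were chosen with earlier results of these data known. Named genes are the 12 with most sites, the 5 with most per Mb among those with 5 or more, the genes of the 8 strongest sites, the leading members of each list and 14 fixed by name; other list members are named after their counts were seen. Sequences were taken from sites not on chromosome 18.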

Additional observations from a re-analysis of the deposited data

How the results depend on the processing

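With 1 biosample, no value has a biological error. No paired analysis was possible because both libraries belong to 1 group. The ratio of first to later introns kept an interval above 1 for either library alone (1.51 and 1.62), longer peak lists (1.69), 50% overlap (1.51), starts of the full annotation (1.51), the stronger 50% of peaks (1.28) and a start distance of 2.5 kb (1.12). It was 1.02 at a start distance of 5 kb, 1.02 at 5 to 10 kb, 0.906 at 10 to 20 kb, 0.705 at 20 to 50 kb, 1.05 beyond 50 kb and 1.09 in genes without an open start; the cause was not tested.

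The number of sites ranged from 2078 to 7462 and of genes from 1350 to 3696 when either library was left out, by construction, since a peak then needs no partner. The sites numbered 3098 with longer lists, 1173 at 2.5 kb, 834 at 5 kb and 664 among the stronger 50%, and the genes 766, 537 and 557 in the last 3 of these. The shared share was 37.8% with the longer list of technical replicate 1 and 24.6% at 50% overlap. The median rank was 30.8 in technical replicate 1, 40.4 among peaks away from starts and 41.4 beyond 5 kb.

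Of 144 motif ratios under alternatives, 131 kept their call (an interval apart from 1, or not), 9 gained an interval apart from 1 and 4 lost it. The point estimate crossed 1 in 20, and in each of these the interval included 1 both as reported and under the alternative. AP-1 lost its call with 300 bp windows (1.12) and in technical replicate 1 alone (1.32), SP in technical replicate 7 alone (1.13) and at 2.5 kb (1.37). GATA gained one in 100 bp windows (1.16), in technical replicate 7 alone (1.07), at 2.5 kb (1.37), at 5 kb (1.42) and in windows of 45 to 60% GC (1.22), ETS in each library alone (1.46 and 1.65), YY1 in technical replicate 1 alone (1.78) and TCF/LEF at 2.5 kb (0.446).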

Other observations

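Of 2936 genes with assayable first and later introns and at least 1 intronic site, 1117 had the higher site density in the first intron and 1819 in later introns. Over all protein-coding genes, later introns cover 597.7 Mb and first introns 199.3 Mb. Sites stood in both in 404 genes, and in the others the higher density is that of the only part with a site.

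Of the peaks of technical replicate 1 in first introns, 91.0% overlapped a peak of technical replicate 7, against 95.5% in later introns and 94.6% of intergenic peaks. In the lowest 10% by density of the peaks of technical replicate 7, 6.16% of those in first introns were shared (4.604 to 8.04). The share was 2.16% in later introns (1.54 to 2.94) and 3.95% of intergenic peaks (3.28 to 4.70). Counting this 10% as decile 1, first and later introns had 21.4% and 15.6% in decile 5. They were close in stronger peaks, at 67.1% and 67.3% in decile 8 and 89.8% and 90.2% in decile 9.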
